A study of Chlorocebus sabaeus with 10 samples.

Results

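The interferon-stimulated and antigen processing genes are a set of 35 genes, taken by symbol from the deposited table of estimated transcript counts. A row was found for 33 of the 35 symbols among 23352 genes, with 1 transcript each, and USP18 and TAP2 had no row under these symbols. Counts were high enough to compare the diets for 29 of them, among 7939 genes tested. IFIT5, DDX58, EIF2AK2 and XAF1 were not tested because they had at most 6 counts in any liver.

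Type I interferons are secreted when a cell senses foreign nucleic acid. They bind a receptor that activates a transcription factor complex with STAT2 and IRF9, which switches on many interferon-stimulated genes. The products of these genes sense viral RNA, block its translation, degrade it, or tag proteins with the ubiquitin-like modifier ISG15, and many of them amplify the response. Interferon gamma acts in part through IRF1 and raises the machinery that loads peptides on class I molecules. In the liver, hepatocytes, resident macrophages and endothelial cells all respond to interferon.

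Liver biopsies were taken from 10 female vervet monkeys (Chlorocebus sabaeus), an Old World primate, after 6 weeks on either a high fructose (HFr) diet (n = 5 animals) or a chow diet (n = 5 animals). All animals had been kept on chow before, and the study's methods say that age and body weight were balanced when animals were assigned to a diet. The labels give no age for each animal. By the study's group means the HFr animals were older than the chow animals, a difference it did not mark as significant. Each animal gave 1 library of polyadenylated RNA, so every value is 1 liver at 1 time.

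Total estimated counts ran from 2977282 to 4992505 per liver, and 34.7% to 73.6% of them came from the mitochondrial genome, which left 864571 to 2657103 counts for nuclear transcripts. Both diets spanned most of this range, with a mitochondrial share of 41.8% to 67.8% on the HFr diet and of 34.7% to 73.6% on chow. Values called normalized counts below are CPM, counts scaled to a common library size with edgeR's TMM factors. The 10 hepatocyte markers, such as ALB and APOA1, were all tested, and their summed level was 50156 to 75500 normalized counts on the HFr diet and 41000 to 82283 on chow. Levels are not divided by transcript length, so differences in level between genes are not described.

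None of the 29 tested members passed the comparison of HFr with chow. In edgeR (quasi-likelihood test), 0 of 29 had an unadjusted p under 0.05, against 4.29% of all 7948 tested transcripts, 2.06% higher and 2.23% lower on the HFr diet. After Benjamini-Hochberg adjustment the count was 0 of 29, against 0.0% of all transcripts, and every member had an adjusted p of 0.9996. DESeq2, limma and the study's equal-variance test also gave 0 of 29 at an unadjusted p under 0.05. The diets overlapped for all 29, where 0.541% of all transcripts showed no overlap. In such bulk samples, fewer cells of a type and less RNA per cell cannot be told apart.

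All 29 confidence intervals of the fold changes included 0. The log2 fold changes of HFr against chow ran from -0.74 for CXCL10 to 0.66 for MX1, and 25 of 29 were smaller than 0.5 in size. Lower values on the HFr diet were found for 19 members and higher values for 10, which is 65.5% lower, beside 50.2% of all tested transcripts. The median was -0.08 for the members and -0.00075 for all transcripts. For 20 of the 29 the 95% confidence interval lay within 1 log2 unit of no change in both directions, and the widest interval belonged to MX1, from -0.59 to 1.92. A p above the threshold does not show that the diets were alike, and these intervals state which differences the 10 livers allow.

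**Figure D1:**
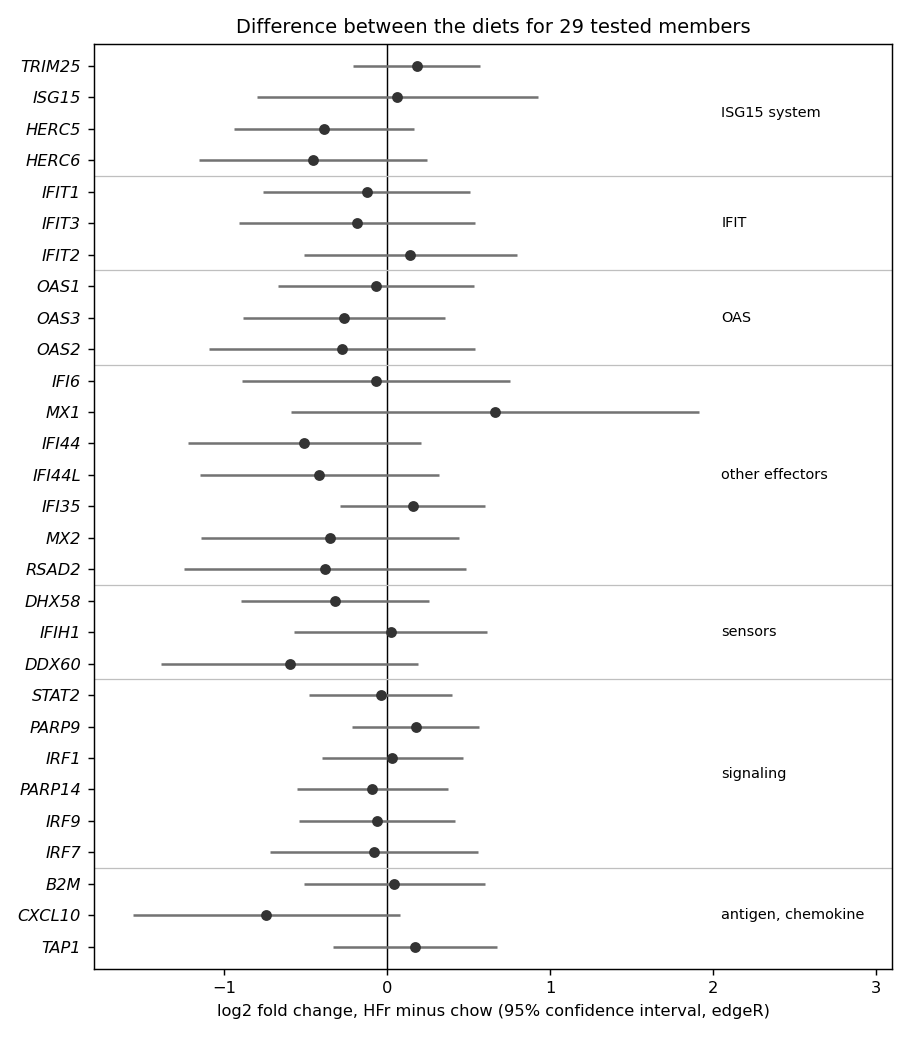
Log2 fold change of each tested member between the HFr and chow diets (points, HFr minus chow) with its 95% confidence interval from edgeR (bars), grouped by role. All 29 intervals include 0, and the estimates lie between -0.74 and 0.66.

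Single animals moved the count. Leaving out 1 liver at a time gave between 0 and 3 members with an unadjusted p under 0.05, and none with an adjusted p under 0.05. Over all tested transcripts these fits gave 260 to 408 with an unadjusted p under 0.05, among them 368 of 8115 without chow replicate 1. Counts this small among 29 members are not read as differences between the diets. Without chow replicate 1, DDX60, HERC6 and CXCL10 passed this unadjusted threshold, all lower on the HFr diet. Without HFr replicate 1 the members under the threshold were DHX58 and CXCL10, both lower. Without chow replicate 4, ISG15 (higher) and CXCL10 (lower) passed it. MX2 (lower, without HFr replicate 3), MX1 (higher, without chow replicate 2) and IFI44 (lower, without chow replicate 3) each passed once. The number of members lower on the HFr diet ranged from 15 without HFr replicate 4 to 22 without chow replicate 1. Without the 3 livers of the highest mitochondrial percent, a setting chosen after seeing the data, 0 of 29 members had an unadjusted p under 0.05. Of all transcripts tested in that setting, 348 of 8928 did.

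Among the members that act through ISG15, the mean of ISG15 itself depended on 1 chow animal. ISG15, a ubiquitin-like protein that is attached to newly made proteins and also secreted, lies on chromosome 20 of ChlSab1.1 from 130419782 to 130421381 (ISG15 is ENSCSAG00000000669 in the table). It had 30.1, 28.5, 27.03, 26.9 and 15.04 normalized counts in HFr replicates 1 to 5 and 10.7, 24.7, 11.4, 60.1 and 18.8 in chow replicates 1 to 5. HFr replicate 5 stood below the other 4 HFr livers, whereas chow replicate 4 stood at more than any other liver and chow replicates 1 and 3 were the lowest of all. The means were nearly equal, 25.5 ± 6.005 on the HFr diet and 25.2 ± 20.4 on chow (SD, n = 5 each). The log2 fold change of 0.06 (SE, the standard error, 0.40) was 0.63 without chow replicate 4, with an unadjusted p of 0.0450 from edgeR.

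HERC5 is the ligase that attaches ISG15, and HERC6 is its neighbor on chromosome 7. HERC5 had 15.4, 19.3, 25.4, 25.8 and 13.7 normalized counts in the HFr livers and 17.4, 26.5, 18.7, 40.9 and 28.5 in the chow livers, in replicate order. All 5 HFr livers were below the chow mean, but chow replicates 1 and 3 lay within the range of the HFr livers, and chow replicate 4 was again the highest liver. The log2 fold change was -0.38 with an SE of 0.26 and an unadjusted edgeR p of 0.157. HERC6 ranged from 10.4 to 20.6 normalized counts on the HFr diet and from 8.68 to 32.2 on chow, also with all 5 HFr livers below the chow mean. TRIM25, the ligase that activates the RNA sensor RIG-I, was among the steadiest members, with 60.7, 47.3, 57.7, 50.2 and 53.4 normalized counts in HFr replicates 1 to 5 and 34.5, 56.5, 38.5, 59.1 and 49.6 in chow replicates 1 to 5. Its values differed by no more than 1.76-fold between any 2 livers, and its log2 fold change was 0.18 (95% interval -0.21 to 0.57).

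The IFIT genes encode RNA-binding proteins that block the translation of foreign RNA, and the IFIT members form a cluster on chromosome 9 of ChlSab1.1, with IFIT2 starting at 82711612 and IFIT5 ending at 82805600. IFIT1 had 26.4, 15.7, 33.5, 10.4 and 23.7 normalized counts in HFr replicates 1 to 5 and 14.2, 22.6, 21.1, 31.3 and 30.8 in chow replicates 1 to 5. IFIT3 had 19.2, 15.5, 26.6, 7.11 and 14.6 on the HFr diet and 7.54, 19.7, 22.4, 25.3 and 18.8 on chow, in the same order. In both genes HFr replicate 4 and chow replicate 1 were the lowest livers of the series and HFr replicate 3 was the highest. IFIT2 had 8.67, 11.2, 10.1, 3.55 and 8.11 normalized counts in the HFr livers and 5.94, 5.04, 9.17, 9.10 and 8.73 in the chow livers, so HFr replicate 4 was the lowest here too, while HFr replicate 2 was the highest. These levels rest on 16 to 50 counts per liver for IFIT2, and on 47 to 120 for IFIT1. The log2 fold changes of IFIT1, IFIT3 and IFIT2 were -0.12, -0.19 and 0.14, with SEs of 0.30, 0.34 and 0.30. IFIT5 had 0 to 3 counts per liver, with a sum of 10 over the HFr livers and 8 over the chow livers. EIF2AK2, the RNA-activated kinase that stops translation, had 0 to 3 counts per liver.

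The OAS enzymes sense double-stranded RNA and make a short nucleotide signal that activates RNase L, and the 3 genes lie side by side on chromosome 11 from 108163299 to 108252837. OAS1 had 46.3, 36.8, 51.6, 39.99 and 43.9 normalized counts in HFr replicates 1 to 5 and 22.6, 84.8, 33.7, 44.98 and 42.7 in chow replicates 1 to 5. All HFr values fell within the range of the chow values, which was set by chow replicates 1 and 2. OAS2 had 12.1, 11.2, 21.4, 6.44 and 13.3 on the HFr diet and 6.86, 19.1, 8.07, 27.8 and 17.5 on chow, in the same order. OAS3 had 35.04, 24.2, 44.4, 17.8 and 27.5 in the HFr livers and 20.3, 37.9, 23.8, 50.03 and 47.3 in the chow livers. For both OAS2 and OAS3, HFr replicate 3 and chow replicate 4 were the highest liver of their diet, and HFr replicate 4 and chow replicate 1 the lowest. The log2 fold changes were -0.07, -0.27 and -0.26 for OAS1, OAS2 and OAS3 (SEs 0.28, 0.38 and 0.29). The estimates of OAS1 and OAS2 each depended on 1 liver, with OAS1 at 0.29 without chow replicate 2 and OAS2 at -0.0030 without chow replicate 4.

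MX1 varied more between livers than any other member. It encodes a dynamin-like GTPase that traps viral components in the cytoplasm, and lies on chromosome 2 of ChlSab1.1 from 85338530 to 85368508 (MX1 is ENSCSAG00000008237 in the table). MX1 had 154, 26.5, 157, 16.4 and 125 normalized counts in HFr replicates 1 to 5 and 26.05, 138, 36.7, 39.4 and 60.2 in chow replicates 1 to 5. HFr replicates 1, 3 and 5 and chow replicate 2 stood between 125 and 157, and the other 6 livers between 16.4 and 60.2, so both diets held high and low animals. The highest and the lowest liver differed 9.55-fold, on 74 to 633 counts. The means were 95.8 ± 69.04 on the HFr diet and 60.02 ± 45.2 on chow (SD, n = 5 each), and the log2 fold change of 0.66 had an SE of 0.58. Without chow replicate 2 it was 1.24, with an unadjusted p of 0.0469 from edgeR.

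The neighboring MX2, whose protein acts at the nuclear envelope, did not show the same division. It had 7.91, 4.93, 14.5, 3.999 and 5.54 normalized counts in the HFr livers and 5.94, 5.91, 8.62, 12.6 and 13.8 in the chow livers, in replicate order. HFr replicate 3 was the highest liver for MX1 and MX2 alike, but chow replicate 2, one of the 4 high livers for MX1, was among the lower livers for MX2, and chow replicates 4 and 5, low or intermediate for MX1, were high for MX2. The log2 fold change of MX2 was -0.35 (SE 0.37).

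IFI6, which encodes a small membrane protein that limits flavivirus replication, had the second largest spread between animals. Its values were 302, 203, 224, 97.5 and 455 normalized counts in HFr replicates 1 to 5 and 95.3, 374, 286, 299.7 and 291 in chow replicates 1 to 5. HFr replicate 4 and chow replicate 1 were far below the rest of their groups, and the other 4 chow livers lay between 286 and 374. The log2 fold change was -0.07 (95% interval -0.89 to 0.75). IFI44 and IFI44L, adjacent genes on chromosome 20, had log2 fold changes of -0.51 and -0.42 (SEs 0.33 and 0.34). Without the 3 livers of the highest mitochondrial percent, the log2 fold change of IFI44 was -0.0914. IFI44 ranged from 22.9 to 54.9 normalized counts on the HFr diet and from 20.9 to 83.6 on chow. For both of these genes chow replicate 5 was the highest liver and chow replicate 3 the lowest. RSAD2, which encodes the antiviral enzyme viperin, rested on 11 to 23 counts per liver, with 2.18 to 5.65 normalized counts on the HFr diet and 2.93 to 10.6 on chow. IFI35 varied less, between 10.5 and 20.2 normalized counts over all 10 livers. XAF1 had 0 to 4 counts per liver.

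Of the RNA sensors, DHX58 (LGP2), a helicase that tunes the other sensors, was high in 1 HFr liver. It had 51.2, 15.5, 32.7, 24.2 and 22.6 normalized counts in HFr replicates 1 to 5 and 26.7, 39.4, 36.3, 37.4 and 40.9 in chow replicates 1 to 5. Chow replicates 2 to 5 lay between 36.3 and 40.9, and 4 of the 5 HFr livers were below the chow mean, but HFr replicate 1 was the highest liver of all. The log2 fold change was -0.32 (SE 0.27). Without HFr replicate 1 it was -0.62, with an unadjusted p of 0.0160 and an adjusted p of 0.9979 or more from edgeR. IFIH1 (MDA5), the sensor of long double-stranded RNA, had 12.1, 8.75, 17.8, 6.89 and 8.90 normalized counts on the HFr diet and 8.68, 11.6, 9.17, 8.09 and 15.2 on chow, with means of 10.9 ± 4.27 and 10.5 ± 2.91 (SD, n = 5 each). DDX60, a helicase linked to RIG-I signaling, had 9 to 30 counts per liver and a log2 fold change of -0.60 (SE 0.37). The RIG-I gene itself, DDX58, had 1 to 6 counts per liver and was not tested.

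The genes of signal transduction and transcription had a median within-diet SD of 0.30 (log2 scale), against 0.62 for the antiviral effectors outside the IFIT and OAS families. STAT2, a subunit of the complex that reads interferon receptor signals, lies on chromosome 11 of ChlSab1.1 from 52297543 to 52316106 (STAT2 is ENSCSAG00000005161 in the table). It had 223, 112, 120.2, 155 and 146 normalized counts in HFr replicates 1 to 5 and 139, 152, 145, 150.1 and 191 in chow replicates 1 to 5. HFr replicate 1 was the highest liver and HFr replicate 2 the lowest, and the means were 151 ± 43.8 and 155 ± 20.5 (SD, n = 5 each). IRF9, its DNA-binding partner, had 10.6, 9.64, 7.26, 8.44 and 14.6 on the HFr diet and 10.1, 13.4, 9.17, 10.1 and 10.6 on chow. Of its 10 values, the highest and the lowest both came from the HFr diet. The log2 fold changes of STAT2 and IRF9 were -0.04 (95% interval -0.48 to 0.40) and -0.06 (95% interval -0.54 to 0.41).

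PARP9 and PARP14 encode partner enzymes of ADP-ribosylation that act on interferon signaling, and both genes lie on chromosome 22. PARP9 had 118, 79.8, 113, 89.1 and 83.1 normalized counts in HFr replicates 1 to 5 and 86.8, 105, 66.4, 80.9 and 86.9 in chow replicates 1 to 5. It had the smallest within-diet SD of all members, with 1.77-fold between the highest and the lowest liver and a log2 fold change of 0.18 (95% interval -0.21 to 0.57). PARP14 ranged from 15.95 to 32.8 normalized counts over the 10 livers. IRF1, the transcription factor of the interferon gamma response, ranged from 18.4 to 34.7, and IRF7, which drives the later production of type I interferon, from 4.34 to 12.4. The log2 fold changes of PARP14, IRF1 and IRF7 were -0.09, 0.03 and -0.08, each smaller than its SE.

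The smallest p of all members belonged to CXCL10, a chemokine that draws T cells to tissue and is induced by interferon gamma. The gene lies on chromosome 7 of ChlSab1.1 from 24526680 to 24529131 (CXCL10 is ENSCSAG00000004654 in the table). CXCL10 had 93.1, 51.8, 52.04, 64.4 and 65.3 normalized counts in HFr replicates 1 to 5 and 58.5, 168, 91.1, 33.9 and 194 in chow replicates 1 to 5. The HFr livers lay close together and all below the chow mean, whereas the chow livers held both the highest values, in chow replicates 2 and 5, and the lowest, in chow replicate 4. The means were 65.3 ± 16.8 on the HFr diet and 109 ± 69.4 on chow (SD, n = 5 each). The log2 fold change was -0.74 with an SE of 0.38 and an unadjusted edgeR p of 0.0726. Its log2 fold change reached -0.98 in the absence of chow replicate 4, its lowest liver (unadjusted p = 0.00963, adjusted p of 0.9976 or more, from edgeR). It was -0.44 in the absence of chow replicate 5, its highest liver. When every transcript with a count was tested, it was -0.74 with an unadjusted p of 0.0369 from edgeR.

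B2M encodes the light chain of class I molecules and lies on chromosome 26 of ChlSab1.1 from 38331442 to 38338810 (B2M is ENSCSAG00000009613 in the table). It had 854, 916, 1118, 494 and 682 normalized counts in HFr replicates 1 to 5 and 741, 533, 821, 703 and 1143 in chow replicates 1 to 5. The highest value of each diet was found in HFr replicate 3 and chow replicate 5, and the log2 fold change was 0.04 (95% interval -0.51 to 0.60). TAP1, a subunit of the peptide transporter that feeds class I molecules, had 6.78 to 9.28 normalized counts on the HFr diet and 5.05 to 9.19 on chow, from 10 to 44 counts per liver. Its partner TAP2 had no row.

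**Figure D2:**
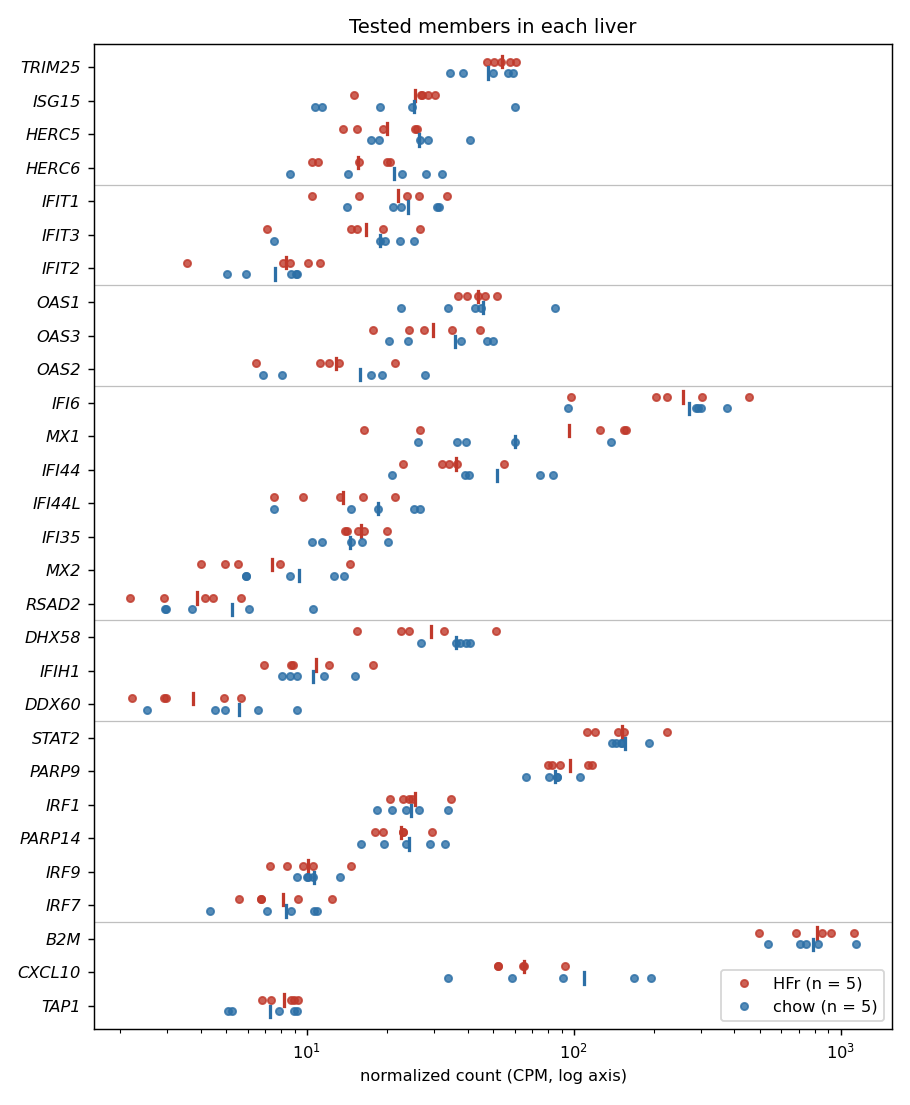
Normalized counts (CPM, log axis) of the 29 tested members in each HFr (red) and chow (blue) liver, grouped by role, with vertical bars for the diet means (n = 5 each). Red and blue points overlap in every row, and the points of MX1 spread from 16.4 to 157.

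The members varied more between animals of one diet than most transcripts did. The biological coefficient of variation, edgeR's estimate of the variation between animals beyond counting error, had a median of 32.0% over the 29 members and of 25.0% over all tested transcripts. It was above edgeR's trend at the same level for 18 of 29 members, or 62.1%, against 29.7% of all transcripts. The SD between animals within a diet, on the log2(CPM + 1) scale, had a median of 0.50 for the members and 0.36 for all transcripts. A difference of at least 3-fold between the highest and the lowest liver was found for 16 of 29 members, or 55.2%, against 32.4% of all transcripts.

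The SD was largest for MX1 (1.25), IFI6 (0.79), CXCL10 (0.77), ISG15 (0.74), OAS2 (0.69) and IFIT3 (0.65), and smallest for IRF9 (0.28), TRIM25 (0.26) and PARP9 (0.25). Of all tested transcripts, 99.2% had a smaller SD than MX1. Of the 6 genes for signal transduction and transcription, 0 lay above the trend. All 3 tested IFIT genes, all 3 OAS genes, 6 of the 7 other antiviral effectors, 3 of the 4 genes of the ISG15 system, 2 of the 3 RNA sensors and 1 of the 3 genes of antigen processing and chemokines lay above it. A difference between roles was not tested. IFIT2 did so by a negligible margin, at 29.98% against a trend of 29.97%.

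**Figure D3:**
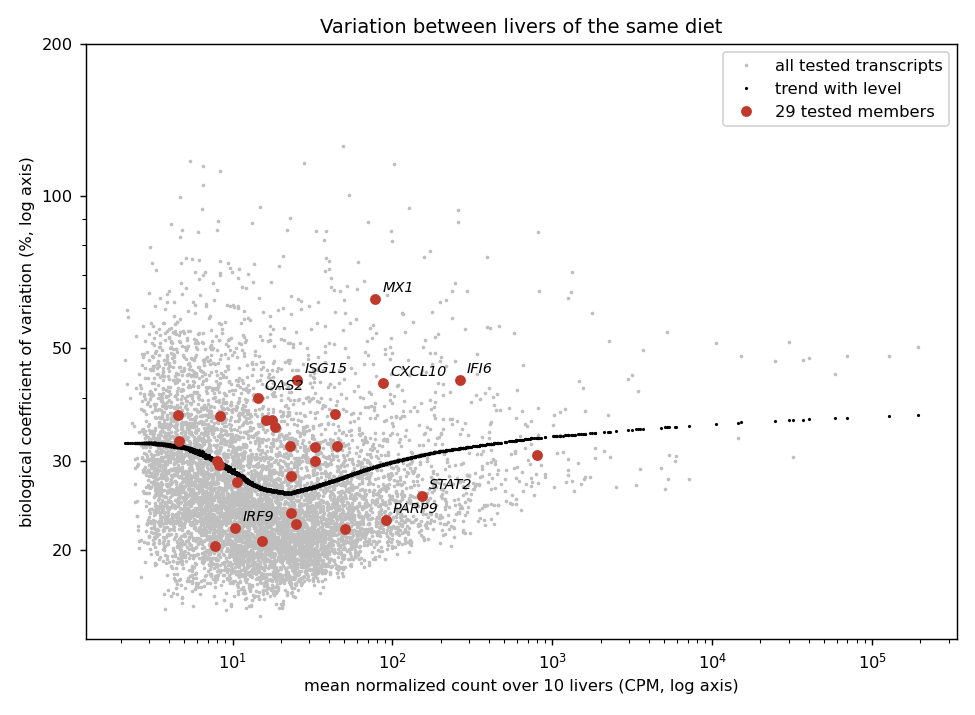
Biological coefficient of variation between livers of the same diet (percent, log axis) against the mean normalized count (CPM, log axis) for all tested transcripts (gray), edgeR's trend with level (black) and the 29 tested members (red). MX1 stands at 62.6% where the trend is 29.2%, and STAT2, PARP9 and IRF9 lie below the trend.

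Some animals were high or low for many members at once. Each member's log2(CPM + 1) was set against its own mean over the 10 livers. HFr replicate 3 was above that mean for 23 of 29 members, HFr replicate 1 for 23, chow replicate 5 for 25, chow replicate 2 for 21 and chow replicate 4 for 20. In contrast, chow replicate 1 was above it for 2 of 29, HFr replicate 2 for 5 and HFr replicate 4 for 7, while HFr replicate 5 and chow replicate 3 were each above it for 11. The median deviation over the members ran from -0.37 in chow replicate 1 and -0.35 in HFr replicate 4 to 0.33 in HFr replicate 3 and 0.34 in chow replicate 5. Over all tested transcripts it stayed between -0.004 and 0.02 in every liver, but TMM scaling itself holds that median close to no deviation. HFr replicate 4 was the lowest liver for 10 members and chow replicate 1 for 6. The high and the low animals were thus found on both diets.

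**Figure D4:**
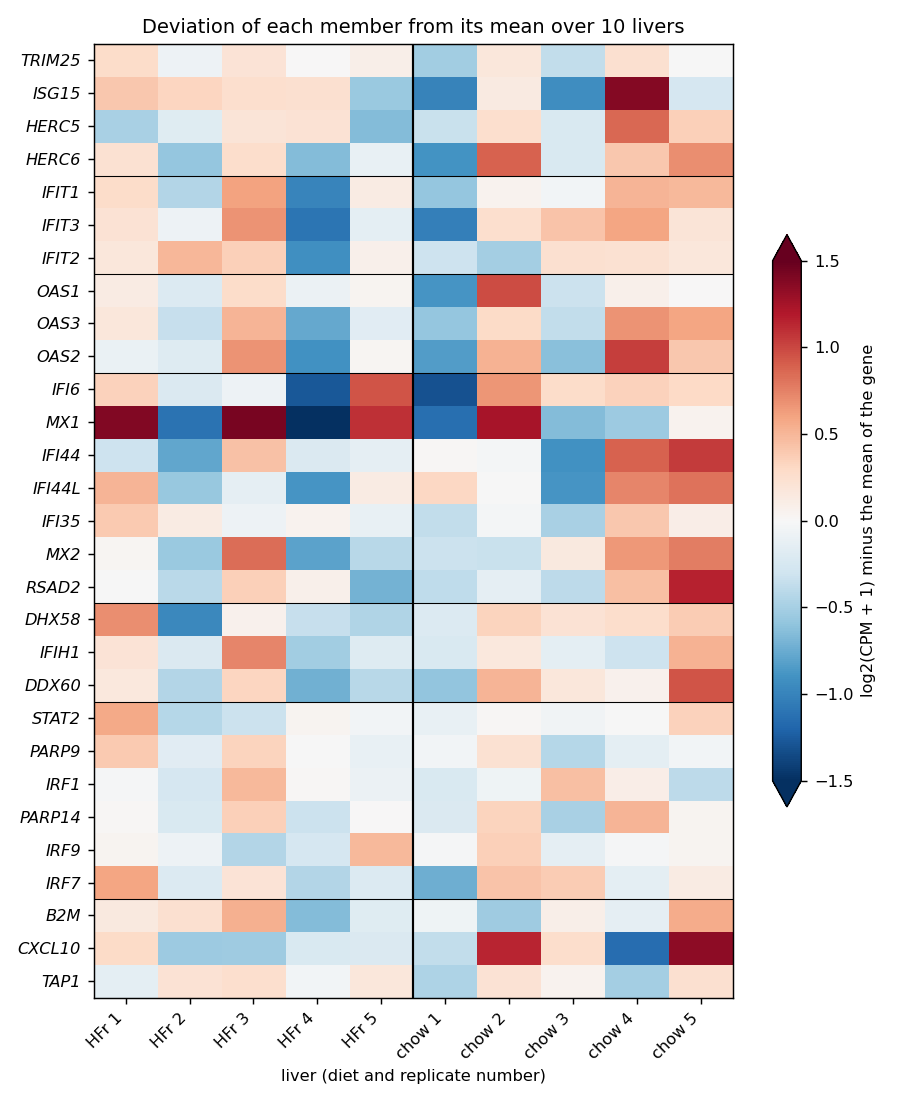
Deviation of each tested member (rows, grouped by role) from its mean over the 10 livers (columns, HFr left of the line and chow right of it), as log2(CPM + 1), with the color scale ending at 1.5 in both directions. Chow replicate 1 and HFr replicate 4 are mostly blue, with 27 and 22 of 29 members below the mean, and chow replicate 5 is mostly red, with 25 above it.

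Pairs of members were compared over the 10 livers. Of the 406 pairs, 89.4% had a positive Pearson's r, and the median r was 0.37. Over all pairs of tested transcripts, 49.9% were positive and the median was -0.00084. An r over 0.8 was found for 17 member pairs, or 4.19%, against 0.530% of all pairs. After each value was centered on its diet mean, the median over the members was 0.41. The points of each pair come from the same libraries, and pairs that share a gene are not independent. OAS3 had the highest median r with the other members (0.61), followed by IFIT1 and HERC6 (both 0.59), and the lowest belonged to IRF1 (0.08) and IRF9 (0.07).

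After adjustment over the 406 pairs, 3 had an adjusted p under 0.05 for Pearson's r. OAS2 and OAS3, which lie 5331 bases apart, had r = 0.94 and Spearman's rho = 0.95 (n = 10, permutation p = 8e-05 and 7e-05, adjusted p = 0.0162 and 0.0284). For IFIT1 and OAS3, on different chromosomes, r was 0.93 and rho 0.92 (permutation p = 7e-05 and 0.00056, adjusted p = 0.0162 and 0.0758). For OAS2 and PARP14, also on different chromosomes, r was 0.93 and rho 0.93 (permutation p = 0.00024 and 0.00037, adjusted p = 0.0325 and 0.0751). Without the 2 livers farthest from the median of the first gene, r was 0.91, 0.87 and 0.89 for these pairs, in the same order. Within diets it was 0.94, 0.93 and 0.93. Of the 9 pairs of members within 100 kb of each other, OAS2 with OAS3 was the one with an adjusted p under 0.05. The livers fell into separate clusters for MX1, so no single r of MX1 is described, although its pairs are part of the counts, medians and plot of all 406 pairs. IFIT1 and IFIT2 had r = 0.63 and rho = 0.44 (permutation p = 0.0487 and 0.203, adjusted p = 0.250 and 0.484), and their r was -0.04 without the 2 livers farthest from the median of IFIT1.

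**Figure D5:**
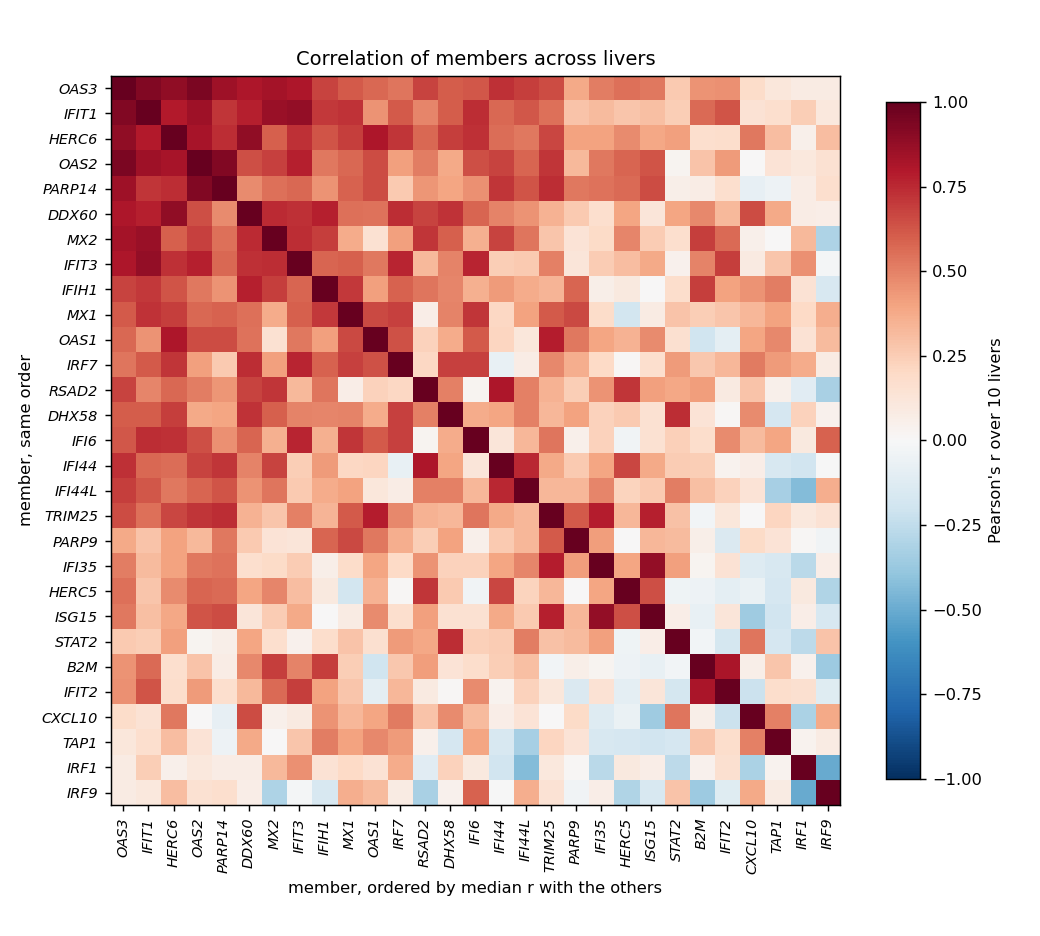
Pearson's r over the 10 livers for each pair of the 29 tested members, computed on log2(CPM + 1) and ordered by the median r with the other members (color). A red block joins OAS3, IFIT1, HERC6, OAS2 and PARP14 at the upper left, and IRF1 and IRF9 at the lower right have median r of 0.08 and 0.07.

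Depth and cell markers moved with some of these levels. The livers with the fewest nuclear counts, chow replicates 4 and 5 and HFr replicates 3 and 1, were also among those above the mean for most members. The other such liver, chow replicate 2, had 2022640 nuclear counts and the lowest mitochondrial share. Against the log2 nuclear counts, r was negative for 24 of 29 members (median -0.44), and against the mitochondrial percent it was positive for 22 (median 0.27). The 13 listed macrophage markers, of which 9 were tested, summed to 395 to 564 normalized counts on the HFr diet and 351 to 588 on chow, with the lowest sum in chow replicate 2 and the highest in chow replicate 4. Their log2 sum had a positive r with 26 of 29 members (median 0.45). The 13 listed T and NK cell markers, of which 5 were tested, summed to 32.8 to 56.4 on the HFr diet and 26.0 to 49.9 on chow, and r was positive for 20 members (median 0.24). Of the 116 relations in these 4 families, 12 had an unadjusted permutation p under 0.05 and 0 had an adjusted p under 0.05. These correlations were not computed for the other transcripts, so no share over all transcripts stands beside the counts of signs. The members also vary together, so their signs are not independent. None of the macrophage or T and NK cell markers in the table was at 0 in all livers. Of their 9 and 5 tested genes, 0 had an unadjusted p under 0.05 between the diets, beside 4.29% of all tested transcripts. So few genes cannot show that the content of these cells was alike. The part of depth and cell content in the levels of the members was not tested. With the mitochondrial percent as a covariate, 0 of 29 members had an unadjusted p under 0.05 between the diets in edgeR, beside 406 of all 7948 tested transcripts.

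The 7 listed markers of B and plasma cells summed to 36.3 to 533 normalized counts on the HFr diet and 159 to 701 on chow, nearly all of it from the 1 tested marker, JCHAIN. This sum went with the levels of the members in some livers but not in all, and no correlation was computed for it. It was 701 in chow replicate 5, 533 in HFr replicate 1, 425 in HFr replicate 3 and 393 in chow replicate 4, which were above the mean for 20 to 25 of 29 members. It was 36.3 in HFr replicate 2, 91.8 in HFr replicate 4, 150.0 in HFr replicate 5 and 159 in chow replicate 1, which were above the mean for 2 to 11. Chow replicates 2 and 3 broke this order. Chow replicate 2, above the mean for 21 members, had a sum of 203. Chow replicate 3, above the mean for 11, had 277. The part of these cells in the levels of the members was not tested. The 7 neutrophil markers summed to 4.49 to 24.6 and 5.56 to 57.6, with ELANE and S100A12 at 0 in all livers. The 5 markers of plasmacytoid dendritic cells, which make type I interferon, summed to 11.7 to 25.4 and 10.1 to 22.5, and the tested one of them, GZMB, is also made by NK and T cells.

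Chow replicate 1, the liver with the fewest members above their mean, was also the highest or lowest liver for several marker sums. Its distance from the other chow livers is not given for the stellate and cholangiocyte sums. It had the lowest hepatocyte sum of all livers (41000), the highest stellate cell sum (827, against at most 407 on the HFr diet) and the highest cholangiocyte sum (31.8, against at most 26.7 on the HFr diet). Its sums of T and NK cell markers (26.0) and of plasmacytoid dendritic cell markers (10.1) were the lowest of all livers. The 8 endothelial markers summed to 343 to 457 normalized counts on the HFr diet and 263 to 449.8 on chow. These 2 lists, endothelial and stellate, each held 1 gene with an unadjusted p under 0.05 between the diets. KDR, an endothelial receptor, had a log2 fold change of 0.57 (unadjusted edgeR p of 0.0109), and ACTA2, the actin of contractile cells, had -1.57 (unadjusted edgeR p of 0.00646). The lists held 8 and 6 tested genes, and 4.29% of all tested transcripts passed this threshold. KDR and ACTA2 are named because they passed it, and the directions of the other tested genes of these lists are not given. Their fold changes without chow replicate 1 are not given either. No transcript had an adjusted p under 0.05 in edgeR. The part of these cell types in the levels of the members was not tested.

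The other genes of the pathway were followed in lists of 116 genes, of which 91 had a row and 58 were tested. Of these 58, 2 had an unadjusted p under 0.05 from edgeR, both higher on the HFr diet, and none had an adjusted p under 0.05. This stands beside 4.29% of all tested transcripts in either direction. The median log2 fold change of the 58 was 0.02.

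Upstream, the 6 interferon genes with a row had no count in any liver, which allows up to 3 counts each of the 2977282 to 4992505 per liver. Of the receptors and their kinases, 4 of 9 listed genes were tested and 0 passed. TYK2, a kinase of the type I receptor, had the smallest p of them (0.36 on the log2 scale with an SE of 0.20, and an unadjusted edgeR p of 0.0859). Among 7 tested transcription factors, 0 passed. Of 4 tested sensing adaptors and kinases, 0 passed, and MYD88, an adaptor of Toll-like receptors, had the smallest p (log2 fold change 0.42, SE 0.22). Of 4 tested feedback genes 0 passed, and TRIM21 had the smallest p (0.387 from edgeR, log2 fold change 0.28).

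Downstream, 26 of 47 further interferon-stimulated genes were tested, 14 higher and 12 lower on the HFr diet, and 1 passed at the unadjusted threshold. This was CXCL9, which encodes a chemokine for the same receptor as CXCL10. CXCL9 had 12.8, 6.28, 19.4, 5.998 and 3.36 normalized counts in HFr replicates 1 to 5 and 1.60, 4.82, 1.65, 4.04 and 6.89 in chow replicates 1 to 5. HFr replicates 1 and 3 were the highest livers, and the other 3 HFr livers overlapped with chow. Its log2 fold change was 1.36 with an SE of 0.51, with an edgeR p of 0.0181 and an adjusted p of 0.9996, whereas that of CXCL10 was -0.74. Without HFr replicate 3 the p of CXCL9 was 0.0730 in edgeR, and it was 0.0672 in the study's equal-variance comparison of normalized values (an unadjusted p, beside edgeR's). With the replicate block in edgeR its log2 fold change was 1.28, with an unadjusted p of 0.0640. The difference between CXCL9 and CXCL10 was not tested.

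For class I antigen processing, 9 of 17 listed genes were tested, 6 higher and 3 lower, and 1 passed at the unadjusted threshold. This was CALR, a chaperone of the endoplasmic reticulum that helps class I molecules fold and serves many other secreted proteins. CALR had a log2 fold change of 0.70 with an SE of 0.21, with an edgeR p of 0.00434 and an adjusted p of 0.9996. It had 52.00, 43.3, 51.6, 41.5 and 80.9 normalized counts in HFr replicates 1 to 5 and 32.9, 31.97, 42.4, 30.8 and 27.1 in chow replicates 1 to 5. HFr replicate 5 was the highest liver, and the diets overlapped because chow replicate 3 exceeded HFr replicate 4. With library size as the sole scaling its edgeR p was 0.0784. For class II presentation 4 of 9 listed genes were tested, and all 4 had lower estimates on the HFr diet, with 0 passing. CD74, the class II chaperone, had the smallest p of them (0.555 from edgeR, log2 fold change -0.18).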

How the data were processed

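Polyadenylated liver RNA of 10 animals was sequenced as paired reads of 100 bases. Per the submitters' processing notes CASAVA 1.8, STAR 2.5.3a and Partek were used. The methods name ChlSab1.1 with Ensembl release 93. The authors deposited estimated counts per transcript, from an expectation-maximization step, and a table of the same counts scaled by TMM, a signal used here for the study's test alone. The strand setting of the counting is not given in the sources used here, and reads of similar genes (IFIT, OAS, MX and HLA families) may be split uncertainly between them.

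Estimated counts were rounded to whole numbers. Transcripts were kept by edgeR's filter (minimum count 10, minimum total 15), which left 7948. The diets were compared with edgeR 4.0.16 in R 4.3.3 (TMM, quasi-likelihood test, 2-sided, Benjamini-Hochberg adjustment), with 5 animals per diet and no covariate. DESeq2 1.42.0, limma 3.58.1 and the study's equal-variance test were alternatives, and the code was tested on simulated data. The study's test was run here on log2 of the normalized values plus 1, for the transcripts kept by edgeR's filter. The study's methods name no log transform for transcripts. Spread was the within-diet SD of log2(CPM + 1) and edgeR's biological coefficient of variation. Correlations used 100000 permutations, 2-sided. Depth was 2977282 to 4992505 counts per liver, and counting error limits members with few counts.

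The members and all gene lists were chosen with earlier results of these data known. Per-animal values are given for members with an unadjusted p under 0.05 or no overlap (none), the 6 with the largest and the 3 with the smallest spread, the 2 of highest level in each role, and the IFIT, OAS and MX families. HERC5 is given per animal in addition, chosen after its values were seen. KDR and ACTA2, from the marker lists, are named because they passed the unadjusted threshold. Of the pathway lists, the genes with an unadjusted p under 0.05 and the smallest p in each list are named, except 1 gene that is not reported here.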

Additional observations from a re-analysis of the deposited data

Results flagged for a closer look

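In 5 of the 58 groups formed by the 29 tested members and the 2 diets, 1 liver lay far from the other 4 of its diet by Dixon's criterion (gap over range above 0.71, on log2(CPM + 1)). Chance alone gives about 1 in 20 groups of normally distributed values. The members vary together over the same livers, so the 58 groups are not independent. The share over all tested transcripts was not computed, so 5 of 58 is not read as an excess. Chow replicate 1 was the low liver for 3 genes, with 7.54 normalized counts of IFIT3, 95.3 of IFI6 and 26.7 of DHX58. HFr replicate 5 was the low HFr liver for ISG15, with 15.04 normalized counts. Chow replicate 5 was the high chow liver for STAT2, with 190.7 normalized counts.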

How the results depend on the processing

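No member had an adjusted p under 0.05 in any setting tried. The number of members with an unadjusted p under 0.05 was 0 of 29, and it was 1 of 33 (CXCL10) with no filter on low counts. It ranged from 0 to 3 when 1 liver was left out. Over all transcripts the count was 341, against 123 with library size scaling only and 756 of 16066 with no filter, and it ranged from 260 to 408 when 1 liver was left out. DESeq2 called 2 transcripts at an adjusted p under 0.05, neither of them a member. Of the tested pathway genes 2 passed, against 1 with the study's equal-variance test, with library size scaling only and with the replicate block. With 10 counts required in every animal it was 1 of 45, and CXCL9, with 7 counts in its lowest liver, was not tested. The count was 4 without the 3 livers of highest mitochondrial percent, a setting chosen after seeing the data, and 2 to 5 when 1 liver was left out.

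Replicate numbers showed no pairing in expression. Correlations of same-numbered deviations ran from -0.287 to 0.0986, and no HFr liver correlated best with the chow liver of its number. These values cannot show whether animals were matched by number when assigned. With the replicate block, 0 of 29 members and 271 transcripts had an unadjusted p under 0.05, and the log2 fold change of OAS1 turned to 0.0583. Signs of log2 fold changes turned in other settings, among them those of IFI44L (-0.42) and RSAD2 (-0.38). OAS1 was 0.0911 with the study's test, and 0.0586 and 0.0624 with limma at pseudocounts of 1 and 0.1, and IRF7 was 0.0079 with the study's test. IFIH1 was -0.0306 and IRF1 -0.0301 with library size scaling only, and IFIH1 was -0.0045 with the mitochondrial percent as a covariate. Without the 3 livers of highest mitochondrial percent IFI6 was 0.0688, IFI44L 0.0017, IFIH1 -0.12, RSAD2 0.0730, IRF1 -0.18 and STAT2 0.13. The cause was not tested.

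Leaving out 1 liver gave log2 fold changes of -0.14 to 0.63 for ISG15, -0.33 to 0.0522 for IFIT1, -0.0041 to 0.34 for IFIT2, -0.42 to 0.0082 for IFIT3, -0.38 to 0.13 for IFI6, -0.22 to 0.16 for IFIH1 and -0.25 to 0.29 for OAS1. They were -0.55 to 0.0042 for RSAD2, -0.11 to 0.19 for IRF1, -0.28 to 0.0465 for IRF7, -0.25 to 0.0400 for IRF9, -0.23 to 0.0534 for STAT2, -0.22 to 0.0302 for PARP14 and -0.11 to 0.21 for B2M. The median over the members ranged from -0.26 to -0.0050. RSAD2 and DDX60 rested on the fewest counts on average (15 and 16.2 per liver), with SEs of 0.40 and 0.37.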

Other observations

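HLA-DRB1, a class II antigen presentation gene named here after its values were seen, had 0.367 normalized counts in chow replicate 3, from 2.01 estimated counts. The other 9 livers had 8.66 to 39.4 normalized counts. HLA-DRA, its partner chain, had 77.6 normalized counts in chow replicate 3, within the range of 49.5 to 198 over the other livers. Reads of similar HLA genes can be divided between them in the estimated counts, and the cause of the low value was not tested.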
